A study of Mus musculus with 4 samples.

Results

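The genes described here are the collagens other than type IV, taken as the array's non-control probes whose gene name is a collagen alpha chain symbol (Col, a type number, a, a chain number) and not one of the Col4a chains. This gave 35 of the 35242 gene names on the array. They fell into 11 fibrillar collagens, 9 fibril-associated collagens and 15 collagens of other kinds. Together they had 54 probes, each 60 bases long, with 1 probe for 22 genes and several for 13. A gene with several probes was represented by its brightest probe, the one with the highest mean log2 signal over the arrays. Chains of type VI alpha 3, type VI alpha 5, type XXI and type XXVI had no probe under such a symbol.

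Collagens are extracellular proteins in which 3 alpha chains wind into a triple helix, a fold that needs glycine at every 3rd residue, so each chain is a run of Gly-X-Y repeats. Fibrillar collagens assemble into the banded fibrils that give connective tissue its tensile strength, and fibril-associated collagens lie along the surface of those fibrils. The remaining types form beaded filaments, anchoring fibrils and short-chain networks, span the plasma membrane, or carry the proteoglycan-bearing chains of basement membrane zones. Fibroblasts are the main source of fibrillar collagen in loose connective tissue.

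The series compared the RNA of 4 mouse cell populations on 1-colour Agilent whole genome arrays, with 1 array each. iPS-OSH and iPS-J are induced pluripotent stem cell lines, that is, somatic cells brought back to a state like that of the early embryo, and both have the C57BL/6 background. ESC are embryonic stem cells of the 129SV background, and MEF are embryonic fibroblasts of the C57BL/6 background. The labels name no transgene, reprogramming factor, clone or feeder layer. MEF were grown in medium with 10% serum, and the 3 pluripotent populations in medium with 15% serum, 2-mercaptoethanol and the cytokine LIF, so in comparisons with MEF the culture medium and the cell state cannot be told apart. ESC also differ in strain from the other populations, and the part of strain in their values cannot be told apart.

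Signals are given here as relative signals, the processed signal of a probe divided by the 75th percentile of its array (1564 in iPS-OSH, 1241 in iPS-J, 1307 in ESC and 1765 in MEF). Differences are log2 differences between arrays, and a gene was counted as higher or lower at a difference of 2-fold or more. With 1 array per population there was no replicate and no test, so a difference describes these arrays. The precision is limited by the number of arrays. Spots of probes printed 10 times gave a technical SD of 0.0958 to 0.163 for a log2 difference at relative signals of 0.5 or more and of 0.232 to 0.377 below that, and the spread between cultures is not in these values. All 4 arrays lay on 1 slide and were scanned in 3 sessions, MEF first, the iPS lines together and ESC last, so session and population cannot be told apart except between iPS-OSH and iPS-J. All 10 pluripotent markers were well above background on each pluripotent array, while on the MEF array 6 were and Sox2, Zfp42, Dppa2 and Dppa4 were not. The 12 fibroblast markers were well above background on all 4 arrays.

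Most fibril-forming collagens (9, 10 and 10 of 11 chains by 2-fold or more for iPS-OSH, iPS-J and then ESC) and several chains bound to fibrils or filaments, had lower signals on the pluripotent arrays than in MEF, with a largest measured difference of 103.9-fold (Col5a2 in ESC), while Col18a1, a basement membrane collagen, had higher signals on each. Below their MEF signal by 2-fold or more on the iPS-OSH array were 9 fibrillar chains (all but Col11a2 and Col24a1), the fibril-associated chains Col9a1, Col12a1, Col14a1, Col16a1 and Col19a1, and 9 others, among them Col6a1, Col6a2, Col7a1, Col8a1 and Col8a2. On the iPS-J array they were 10 fibrillar chains (all but Col11a2), Col12a1, Col14a1 and Col16a1, and 7 others, among them the same types VI, VII and VIII. On the ESC array they were likewise 10 fibrillar chains, 3 fibril-associated and 6 others. Higher than in MEF were Col9a2, Col13a1, Col18a1 and Col22a1 on the iPS-OSH array, Col6a4, Col18a1 and Col22a1 on the iPS-J array, and Col6a4, Col6a6, Col9a2, Col13a1, Col17a1, Col18a1 and Col22a1 on the ESC array. Over all genes, 25.1% were lower than in MEF for iPS-OSH, 26.2% for iPS-J and 16.7% for ESC, and 13.7%, 16.2% and 22.6% were higher. The comparisons share the MEF array. In bulk RNA, fewer cells of a type and less RNA per cell cannot be told apart.

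**Figure D1:**
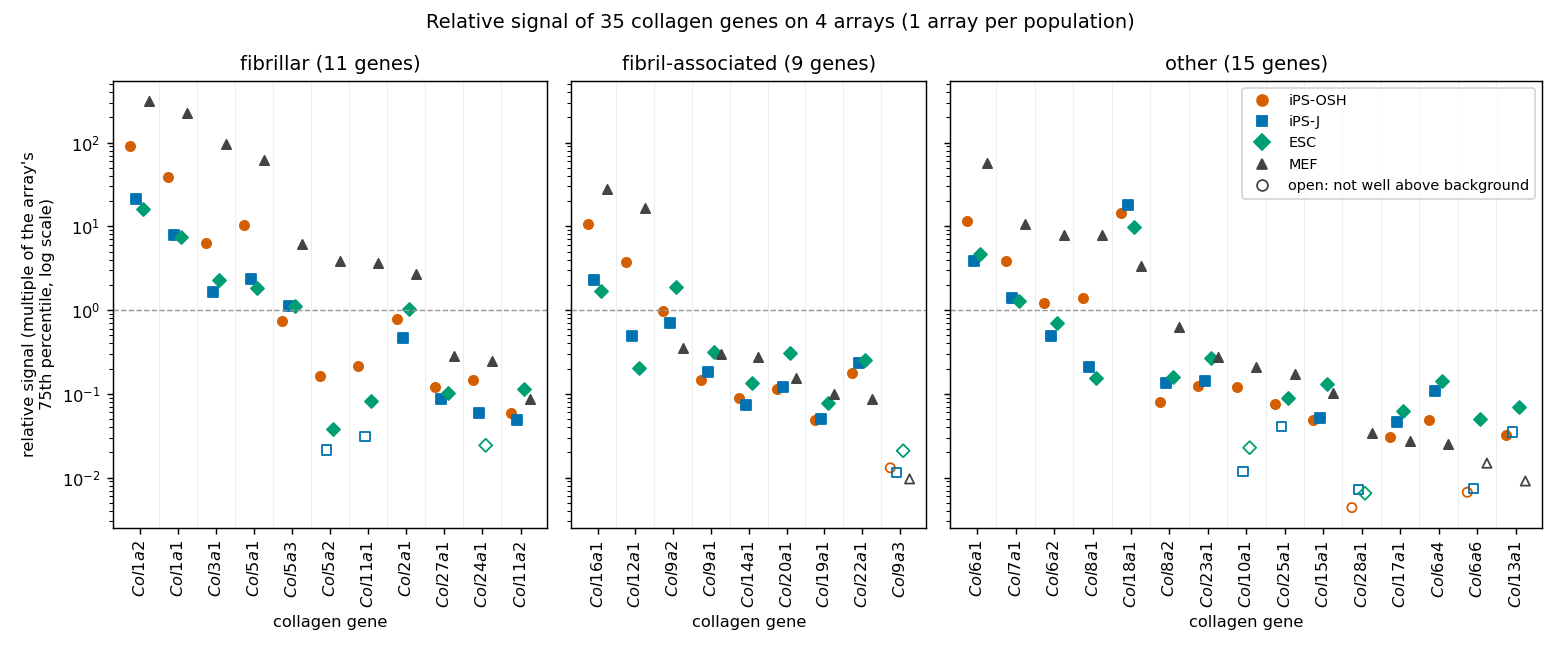
Relative signal (multiple of the array's 75th percentile, log scale) of the 35 collagen genes in 3 classes, ordered by their MEF signal, with 1 point per array and open points where the probe was not well above background. MEF had the highest point for 10 of the 11 fibrillar collagens, and Col18a1 in the third panel had its lowest point in MEF (3.36).

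Counted per array, 32 collagens were well above background in iPS-OSH, 27 in iPS-J, 31 in ESC and 32 in MEF. A total of 26 were so on all 4 arrays and 34 on at least 1, and Col9a3, a chain of the cartilage collagen IX, was not well above background on any. A stricter floor, set at the 95th percentile of each array's ERCC control probes (0.0779 and 0.0973 for the iPS-OSH and iPS-J arrays, 0.200 for ESC and 0.156 for MEF), was passed by 27 members on at least 1 array. The 8 that did not pass it anywhere were Col6a6, Col9a3, Col11a2, Col13a1, Col15a1, Col17a1, Col19a1 and Col28a1, and differences among these rest on signals near the array's background.

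In iPS-OSH, 23 of the 33 collagens compared were lower than in MEF and 4 were higher, where over all genes 25.1% were lower and 13.7% higher. The median log2 difference of the collagens was -1.26, against -0.33 over all genes. In iPS-J, 20 of 32 were lower and 3 higher (all genes, 26.2% and 16.2%), with a median of -2.15 against -0.29. In ESC, 19 of 34 were lower and 7 higher (all genes, 16.7% and 22.6%), with a median of -1.42 against 0.11. Collagens not compared were not well above background on either array of the pair, and 2, 5 and 5 of the values in these comparisons were bounds. Other scalings moved both splits, and under each of them more collagens were lower than higher in these 3 comparisons. Of all genes past 2-fold between ESC and MEF, 57.5% were the higher ones in ESC, and this share was 32.9% with spike-in scaling and 67.4% with a percentile over only the probes detected on every array, while the collagens split 20 lower to 6 higher and 18 to 8. After normexp the ESC share was 57.1%, with 17 collagens lower and 5 higher. For iPS-J the share was 38.2%, with 50.9% after normexp and 19.3% unscaled in the deposited table, where the collagens split 20 lower to 4 higher and 26 to 2. For iPS-OSH it was 35.2%, with 45.4% after quantile normalization, where the collagens split 19 lower to 5 higher. The median over all collagens was negative under each alternative in all 3 comparisons.

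The classes differed in how far they lay below MEF. The fibrillar class had median log2 differences of -2.56 for iPS-OSH, -3.88 for iPS-J and -4.26 for ESC, with 9, 10 and 10 of 11 chains lower and 0 higher. The fibril-associated class had medians of -1.03, -0.85 and -0.14, with 5, 3 and 3 of 8 chains lower and 2, 1 and 2 higher. The other collagens had medians of -1.18, -2.10 and -0.46, with 9 of 14, 7 of 13 and 6 of 15 lower and 2, 2 and 5 higher. Over all genes, 25.1%, 26.2% and 16.7% were lower and 13.7%, 16.2% and 22.6% higher in the same order of arrays. The difference between classes was not tested. Over all alternatives the fibrillar medians stayed between -2.73 and -2.45 for iPS-OSH, between -4.39 and -2.51 for iPS-J and between -4.80 and -4.03 for ESC. The median of the other collagens ranged from -1.46 to -0.78 for iPS-OSH, from -2.60 to -0.57 for iPS-J (the highest with the median over a gene's probes) and from -1.89 (ERCC detection) to -0.04 (normexp) for ESC. The fibril-associated median in ESC changed sign, from -0.67 with spike-in scaling to 0.15 with the median over a gene's probes.

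**Figure D2:**
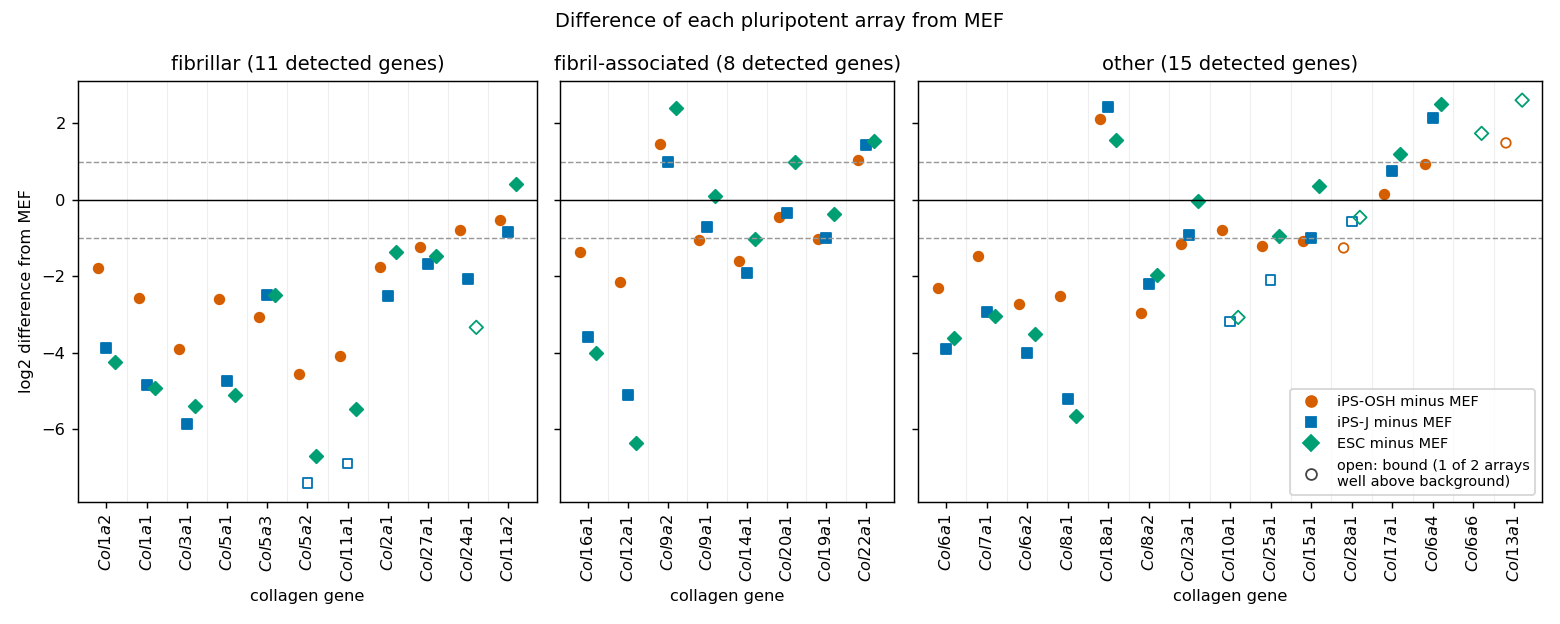
Log2 difference of each pluripotent array from MEF for the 34 collagens well above background on at least 1 array, in 3 classes, with dashed lines at a 2-fold difference and open points for bounds. Fibrillar collagens lay below 0 on every array except Col11a2 in ESC (0.42), whereas Col9a2, Col22a1 and Col18a1 lay above 0.

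Type I collagen, a trimer of Col1a1 and Col1a2 chains, is the main fibril of skin, bone and tendon. Col1a1 (probe at chr11:94813115-94813174, mm9, plus strand) had relative signals of 38.3 in iPS-OSH, 7.86 in iPS-J, 7.38 in ESC and 225.5 in MEF. It was 5.89-fold lower than in MEF in iPS-OSH (log2 -2.56), 28.7-fold lower in iPS-J (-4.84) and 30.6-fold lower in ESC (-4.93). Col1a2 (chr6:4490619-4490678, plus strand) had relative signals of 90.4, 21.0, 16.2 and 310.3 in the same order, and its differences from MEF were -1.78, -3.88 and -4.26. Both type I chains thus stood highest in MEF, next in iPS-OSH and lowest in iPS-J and ESC, whose values lay within 1.30-fold of each other. On the ESC array, where both chains were lowest, their relative signals were still above 1.

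Type III collagen, a homotrimer that forms fine reticular fibrils together with type I, lay further below its MEF signal than the type I chains did. Col3a1 (chr1:45405589-45405648, plus strand) had relative signals of 6.25 in iPS-OSH, 1.63 in iPS-J, 2.26 in ESC and 94.9 in MEF. This was 15.2-fold, 58.2-fold and 42.0-fold below MEF. In iPS-OSH, Col3a1 stood at 6.59% of its MEF signal, while Col1a1 stood at 17.0% and Col1a2 at 29.1%.

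Type V collagen nucleates fibrils and sets their diameter, and its 3 chains did not move alike. Col5a1 (chr2:27892892-27892951, plus strand) had relative signals of 10.3 in iPS-OSH, 2.33 in iPS-J, 1.82 in ESC and 62.4 in MEF, with differences from MEF of -2.60, -4.74 and -5.10. Col5a2 (chr1:45431204-45431263, minus strand) had 0.165, 0.0213, 0.0375 and 3.90, and its probe was not well above background in iPS-J. It had the lowest share of its MEF signal among the fibrillar chains on each pluripotent array, being 23.6-fold lower in iPS-OSH, at least 170.3-fold lower in iPS-J and 103.9-fold lower in ESC. Col5a3 had 0.742, 1.105, 1.103 and 6.17, which was 8.31-fold, 5.58-fold and 5.59-fold lower than in MEF. Unlike Col5a1 and Col5a2, Col5a3 was not highest in iPS-OSH among the pluripotent arrays.

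Types II and XI make up the fibrils of cartilage, and type XI chains are also found with type V elsewhere. Col2a1, the type II chain, had relative signals of 0.785 in iPS-OSH, 0.468 in iPS-J, 1.04 in ESC and 2.67 in MEF, with differences from MEF of -1.77, -2.51 and -1.36. Col11a1 had 0.215, 0.0306, 0.0817 and 3.67, and its probe was not well above background in iPS-J. It was 17.1-fold lower than MEF in iPS-OSH, at least 119.9-fold lower in iPS-J and 45.0-fold lower in ESC. Col11a2, with 0.0597, 0.0483, 0.116 and 0.0861, lay within 2-fold of MEF on all 3 arrays. Of 6 chondrocyte markers on the array, 4 to 5 were well above background on an array, with summed relative signals of 0.993, 0.754, 1.34 and 2.47, and Matn1 was not so on any. The MEF sum was mostly Sox9, a transcription factor of cartilage (0.520, 0.0811, 0.0747 and 2.00), while the other 4 detected markers were highest in ESC.

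Types XXIV and XXVII are fibrillar chains found in developing bone and cartilage. Col24a1 had relative signals of 0.145 in iPS-OSH, 0.0594 in iPS-J, 0.0243 in ESC and 0.249 in MEF, and was not well above background in ESC. Its difference from MEF was -0.78 in iPS-OSH, within 2-fold, and 4.20-fold lower in iPS-J and at least 10.1-fold lower in ESC. Col27a1 had 0.120, 0.0877, 0.102 and 0.281, so that the pluripotent arrays lay close together and all were lower than MEF, by log2 -1.23, -1.68 and -1.47.

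The promoters of 28 of the 35 collagens, 31 windows in all, were found in the RefSeq table (GRCm38.p6), and Col1a1, Col5a2 and Col12a1 were not among them. The 250 bases before the gene start are shown for the fibrillar chains Col1a2, Col3a1 and Col5a1, whose signals were highest in MEF, next in iPS-OSH and lower on both other arrays, and for a window of Col18a1, which was highest in iPS-J. Capitals mark matches on either strand to the TATA box letters TATAAA, the CCAAT box letters CCAAT and the GC box letters GGGCGG. The windows are Col1a2 at chr6:4505368-4505617 (plus strand), Col3a1 at chr1:45311288-45311537 (plus strand), Col5a1 at chr2:27886175-27886424 (plus strand) and Col18a1 at chr10:77166531-77166780 (minus strand, 1 of 2 windows of the gene).
Col1a2: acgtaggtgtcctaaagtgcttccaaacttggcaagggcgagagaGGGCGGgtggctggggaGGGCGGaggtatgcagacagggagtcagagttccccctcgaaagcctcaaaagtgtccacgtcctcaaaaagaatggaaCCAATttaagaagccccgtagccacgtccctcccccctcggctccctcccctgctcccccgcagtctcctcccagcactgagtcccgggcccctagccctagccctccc
Col3a1: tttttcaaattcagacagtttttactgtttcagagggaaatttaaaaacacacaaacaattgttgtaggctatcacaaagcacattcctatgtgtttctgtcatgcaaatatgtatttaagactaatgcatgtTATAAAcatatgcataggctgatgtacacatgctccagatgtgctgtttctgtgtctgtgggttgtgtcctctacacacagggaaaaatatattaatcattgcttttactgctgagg
Col5a1: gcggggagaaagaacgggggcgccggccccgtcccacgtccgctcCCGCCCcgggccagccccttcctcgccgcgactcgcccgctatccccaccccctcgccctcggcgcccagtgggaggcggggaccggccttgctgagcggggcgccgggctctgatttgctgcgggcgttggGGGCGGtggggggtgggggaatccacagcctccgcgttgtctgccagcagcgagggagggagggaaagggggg
Col18a1: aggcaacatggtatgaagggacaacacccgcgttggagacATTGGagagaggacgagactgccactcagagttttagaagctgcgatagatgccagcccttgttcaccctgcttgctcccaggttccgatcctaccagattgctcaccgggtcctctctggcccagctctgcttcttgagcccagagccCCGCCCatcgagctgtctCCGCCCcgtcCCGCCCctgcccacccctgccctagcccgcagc

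The 3 fibrillar promoters that share this order did not share a base composition. The Col3a1 window was 35.2% GC with 0 CpG dinucleotides and held 1 TATA box match, the Col1a2 window was 62.0% GC with 11 CpG and held 1 CCAAT and 2 GC box matches, and the Col5a1 window was 76.4% GC with 28 CpG and held 2 GC box matches. The Col18a1 window shown was 62.0% GC with 12 CpG and held 1 CCAAT and 3 GC box matches. The other Col18a1 window (chr10:77113706-77113955) was 57.6% GC with 3 CpG and held 0 matches of any of these motifs. The median over 32851 promoters was 52.4% GC and 6 CpG. A GC box match was found in 18 of the 31 collagen windows (58.1%) and in 32.7% of all promoters. A CCAAT match was found in 10 (32.3%, against 33.8%) and a TATA match in 5 (16.1%, against 12.4%). These matches are descriptions of letters and say nothing of binding.

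Among the fibril-associated collagens, Col12a1 and Col16a1 followed the type I chains. Col12a1 (chr9:79446895-79446954, minus strand), which bridges fibrils in dense connective tissue, had relative signals of 3.76 in iPS-OSH, 0.487 in iPS-J, 0.203 in ESC and 16.7 in MEF. It was 4.45-fold, 34.4-fold and 82.6-fold lower than in MEF, and its difference between iPS-OSH and ESC (4.21) was the largest of any collagen in the comparisons between pluripotent arrays. A dimmer probe described as type XII, alpha 1, but without the gene symbol, went the other way. Its bounds were -1.56 for iPS-OSH minus ESC and -3.18 for iPS-OSH minus iPS-J. Col16a1 (chr4:129776333-129776392, plus strand), a minor chain found near fibrils and microfibrils, had 10.7, 2.28, 1.71 and 27.6, with differences from MEF of -1.37, -3.60 and -4.01. Its 3 other probes were dimmer, and each was likewise highest in MEF.

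Type IX collagen coats cartilage fibrils, and its chains differed from one another. Col9a2 had relative signals of 0.969 in iPS-OSH, 0.702 in iPS-J, 1.87 in ESC and 0.352 in MEF, so it was highest in ESC and lowest in MEF. It was 2.75-fold higher than MEF in iPS-OSH and 5.33-fold higher in ESC, and in iPS-J it lay just within 2-fold, at 199.6% of the MEF signal. Col9a1 had 0.144, 0.181, 0.315 and 0.296, with ESC within 1.06-fold of MEF and iPS-OSH 2.05-fold lower. Its other, dimmer probe gave log2 differences from MEF of -0.63 in iPS-OSH, within 2-fold, and 0.64 in ESC. The partner chain Col9a3 was not well above background on any array.

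Col22a1, a chain of tissue junctions such as the myotendinous junction, had relative signals of 0.177 in iPS-OSH, 0.235 in iPS-J, 0.252 in ESC and 0.0869 in MEF. It was 2.04-fold, 2.71-fold and 2.90-fold higher than in MEF, at a MEF signal below the ERCC level of that array. Col20a1 had 0.113, 0.120, 0.304 and 0.153, and its other probe went the opposite way from MEF in iPS-OSH and iPS-J. Col19a1 had 0.0491, 0.0503, 0.0778 and 0.100 and lay near the 2-fold limit in iPS-OSH (48.9% of MEF) and iPS-J (50.1%). The fibril-associated count of 5 lower in iPS-OSH included Col9a1, Col19a1 and Col16a1, with differences of -1.04, -1.03 and -1.37, and it was 3 under 4 of the alternatives.

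Col14a1, which binds fibrils during tendon and skin growth, had relative signals of 0.0895 in iPS-OSH, 0.0726 in iPS-J, 0.134 in ESC and 0.273 in MEF on its brightest probe. Its differences from MEF were -1.61, -1.91 and -1.02. The other probe of the gene (chr15:55352264-55352323) had 0.0413, 0.00972, 0.0260 and 0.8001, and was well above background only in iPS-OSH and MEF. On that probe the difference in iPS-OSH was -4.27, so the size of the change depended on the probe.

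The chosen Col14a1 probe can be read as a run of Gly-X-Y repeats, as can those of Col15a1 and Col25a1. These 3 are shown because their letters read as the repeat that all collagens share. Their place in the transcript was not checked. A probe was counted as one that reads so when a reading frame without a stop held at least 6 glycine codons, at any spacing. This was so for 3 of the 54 member probes (5.56%) and for 156 of 55681 non-control probes (0.28%). Capitals mark the glycine codons (GGN), which recur every 3 codons except at a break in the Col14a1 repeat. Probe coordinates (mm9, plus strand) are chr15:55347733-55347792 for Col14a1, chr4:47283786-47283845 for Col15a1 and chr3:130270497-130270556 for Col25a1.
Col14a1: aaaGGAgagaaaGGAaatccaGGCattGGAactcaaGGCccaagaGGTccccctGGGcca
Col15a1: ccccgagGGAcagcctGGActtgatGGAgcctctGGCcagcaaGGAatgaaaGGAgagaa
Col25a1: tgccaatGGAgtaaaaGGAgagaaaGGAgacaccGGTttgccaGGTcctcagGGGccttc

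All 3 were the brightest probe of their gene. The 2 other Col15a1 probes were not well above background on any pluripotent array, and the other Col25a1 probes reached at most 0.0496. Whether these probes also bind RNA of other collagens was not tested. With them left out, an alternative chosen after seeing the data, all counts of collagens stayed within 1.5 times.

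Type VI collagen forms beaded microfilaments around cells, from Col6a1, Col6a2 and 1 further chain. Col6a1 (chr10:76171538-76171597, minus strand) had relative signals of 11.6 in iPS-OSH, 3.81 in iPS-J, 4.62 in ESC and 56.9 in MEF, and was 4.92-fold, 14.9-fold and 12.3-fold lower than in MEF. Col6a2 had 1.20, 0.491, 0.691 and 7.89, and was 6.57-fold, 16.1-fold and 11.4-fold lower. Both chains kept the same order over the arrays, MEF, iPS-OSH, ESC and iPS-J. The alternative chain Col6a4 had 0.0482, 0.1095, 0.143 and 0.0250 and was higher than MEF in iPS-J and ESC (log2 2.13 and 2.52), but its other probe was well above background only in ESC (0.108) and MEF (0.0734). On that probe iPS-J was lower than MEF (bound of -1.68) and ESC within 2-fold of it (0.56), so the Col6a4 differences depended on the probe. Col6a6, another alternative chain, was well above background only in ESC, at 0.0496.

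Col7a1, which builds the anchoring fibrils below epithelia, had relative signals of 3.85 in iPS-OSH, 1.38 in iPS-J, 1.30 in ESC and 10.6 in MEF. It was lower than MEF by 2.75-fold, 7.71-fold and 8.17-fold, with iPS-J and ESC within 1.06-fold of each other.

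Types VIII and X are short-chain collagens that build sheet-like networks. Col8a1, found in vessel walls and in the corneal endothelium's basement membrane, had relative signals of 1.38 in iPS-OSH, 0.210 in iPS-J, 0.154 in ESC and 7.83 in MEF. It was 5.69-fold, 37.2-fold and 50.7-fold lower than in MEF. Col8a2, its partner chain, had 0.0799, 0.136, 0.159 and 0.627 and so was lowest in iPS-OSH, although its other probe was higher in ESC than in MEF (0.295 against 0.245). Col10a1, the chain of hypertrophic cartilage, had 0.120 and 0.209 in iPS-OSH and MEF and was not well above background in iPS-J and ESC. Its other probe was well above background only in iPS-J, at 0.0906, so the Col10a1 probes differed for that line.

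The multiplexins Col15a1 and Col18a1 are basement membrane collagens that carry glycosaminoglycans, and Col18a1 yields the fragment endostatin. Col18a1 (chr10:76514926-76514985, minus strand) had relative signals of 14.6 in iPS-OSH, 17.9 in iPS-J, 9.93 in ESC and 3.36 in MEF. It was 4.33-fold, 5.34-fold and 2.95-fold higher than in MEF, the reverse of the fibrillar chains. A second probe (chr10:76515790-76515849) had 15.5, 14.8, 8.47 and 2.33, with differences from MEF of 2.73, 2.67 and 1.86. Among the pluripotent arrays Col18a1 lay within 2-fold. Summed relative signals of 12 primitive endoderm markers, cells that lay down basement membrane, were 8.67 in iPS-OSH, 149.9 in iPS-J, 21.1 in ESC and 4.003 in MEF, with 11, 10, 11 and 11 of 12 well above background and Afp not so on any pluripotent array. Their part in the Col18a1 signal was not tested. Col15a1 had 0.0490, 0.0517, 0.131 and 0.103, below the ERCC level on every array.

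The transmembrane collagens stayed at relative signals of 0.274 or less on all 4 arrays. Col23a1 had relative signals of 0.123 in iPS-OSH, 0.144 in iPS-J, 0.269 in ESC and 0.274 in MEF on its brightest probe. There ESC and MEF were alike and the iPS lines lower than MEF by log2 -1.15 and -0.93. A dimmer Col23a1 probe, well above background on all 4 arrays, gave -0.06 and -0.16 from MEF for iPS-OSH and iPS-J. From ESC it gave -0.29 and -0.40, so the Col23a1 differences depended on the probe. Col25a1 had 0.0750, 0.0403, 0.0889 and 0.172, with its iPS-J signal not well above background. Col17a1, the hemidesmosome collagen of epithelia, ranged from 0.0274 in MEF to 0.0624 in ESC, and Col13a1 was well above background only in ESC (0.0703) and iPS-OSH (0.0323). Col28a1, a chain of peripheral nerve, was well above background only in MEF, at 0.0339.

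The comparison of the pluripotent arrays with one another asked how alike they were. Of the fibrillar chains, 7 of 11 had signals 2-fold or more higher in iPS-OSH than in iPS-J (all genes, 8.91%). Against ESC, 7 of 11 were so as well (all genes, 8.85%). Col5a3 was lower in iPS-OSH than on either array by less than 2-fold (-0.58 and -0.57). The type I chains of iPS-J and ESC lay close together. Within the shared scan session, 14 of 32 collagens had signals 2-fold or more higher in iPS-OSH than in iPS-J and 1, Col6a4, was lower, where over all genes 8.91% were higher and 7.37% lower. The 14 were 7 fibrillar chains (Col1a1, Col1a2, Col3a1, Col5a1, Col5a2, Col11a1 and Col24a1), Col12a1 and Col16a1, and Col6a1, Col6a2, Col7a1, Col8a1 and Col10a1. The fibrillar median was 1.94 (3.83-fold), against 0.00 over all genes, and stayed between 1.29 and 2.27 under the alternatives. The largest measured differences were 2.95 for Col12a1 and 2.71 for Col8a1, and Col5a2 and Col11a1 were at least 7.23-fold and 7.03-fold higher.

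**Figure D3:**
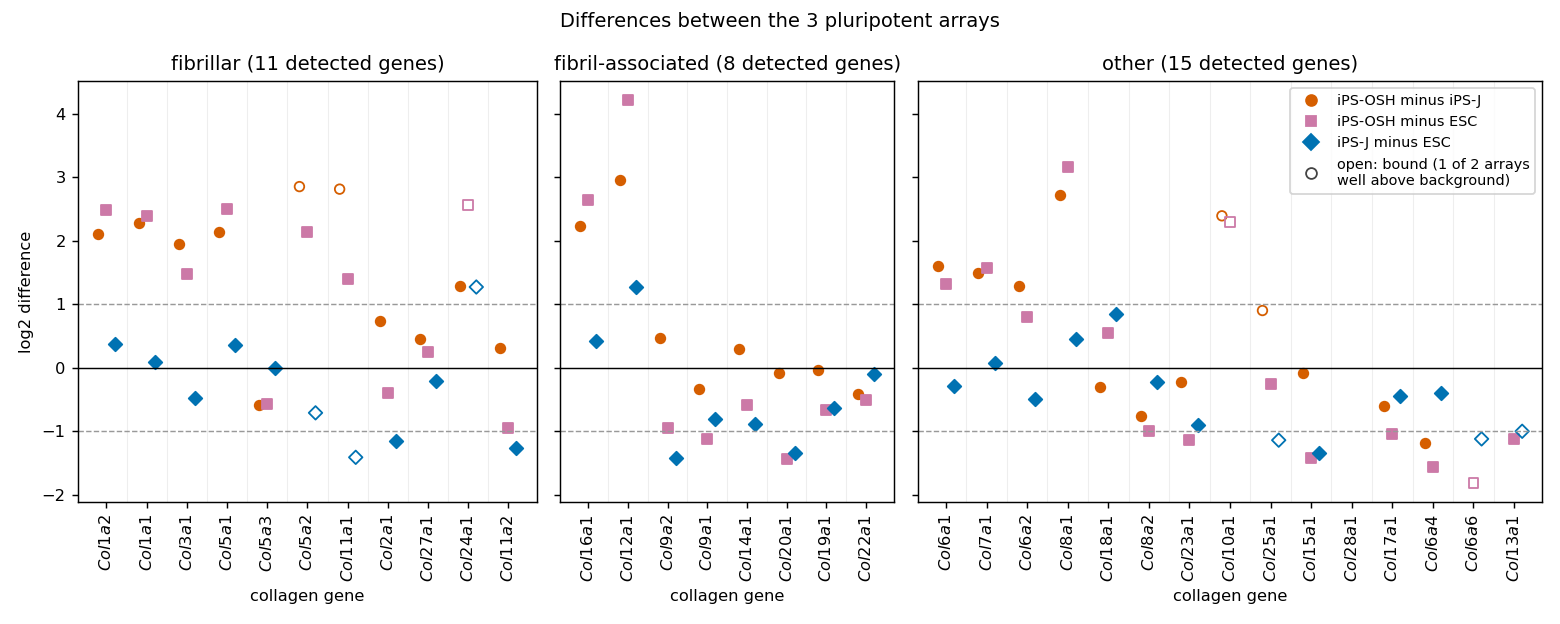
Log2 differences between the pluripotent arrays (iPS-OSH minus iPS-J, iPS-OSH minus ESC, iPS-J minus ESC) for the 34 collagens well above background on at least 1 array, with dashed lines at a 2-fold difference and open points for bounds. Type I, III, V, XII, XVI and VIII chains sit above the upper line in iPS-OSH minus iPS-J and iPS-OSH minus ESC, with Col12a1 highest at 4.21, while Col5a3, Col8a2 and Col9a2 do not, and Col28a1 has no value.

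Against ESC, 13 of 33 collagens were higher in iPS-OSH and 8 were lower, where over all genes 8.85% were higher and 27.6% lower. The 13 were Col1a1, Col1a2, Col3a1, Col5a1, Col5a2, Col11a1 and Col24a1 of the fibrillar class, Col12a1 and Col16a1, and Col6a1, Col7a1, Col8a1 and Col10a1, and this comparison shares the iPS-OSH array with the one before. The fibrillar median was 1.47, and it ranged from 0.17 with ERCC detection to 2.03 after quantile normalization. Col12a1 was 18.6-fold, Col8a1 8.92-fold and Col16a1 6.24-fold higher. The 8 that were lower were Col6a4, Col6a6, Col9a1, Col13a1, Col15a1, Col17a1, Col20a1 and Col23a1, none of which exceeded 0.315 on either array. The lower count depended on the scaling, with splits of 12 higher to 2 lower after normexp, 13 to 2 after quantile normalization, 14 to 4 both in the deposited table and with spike-in scaling, and 13 to 11 with the percentile over probes detected on every array. The median over all 33 was -0.25 and changed sign, up to 0.41 after quantile normalization, as did that of the 14 other collagens, from -0.62 up to 0.67 with ERCC detection.

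Between iPS-J and ESC, 2 of 32 collagens were higher in iPS-J (Col12a1, log2 1.27, and Col24a1, at least 2.41-fold) and 9 were lower, where over all genes 5.5% were higher and 25.9% lower. The fibrillar chains Col1a1, Col1a2, Col3a1, Col5a1 and Col5a3 differed by 0.09, 0.38, -0.47, 0.36 and 0.00, while Col2a1 (-1.15), Col11a2 (-1.26) and Col11a1 (at least 2.67-fold) were lower in iPS-J. The 9 lower collagens also included Col9a2 (-1.42), and their count was 2 after normexp and after quantile normalization and 11 with the percentile over probes detected on every array. Signs of differences as small as those of Col1a1 and Col5a3 changed between alternatives.

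In the order of the 4 arrays, MEF stood above all pluripotent arrays for 23 of the 34 collagens well above background somewhere, where 35.1% of all such genes did so. A gene seen only in MEF, such as Col28a1, had to take this place. iPS-OSH was the highest of the pluripotent arrays for 15 of 34, against 25.4% of all genes. The full order MEF, iPS-OSH, iPS-J and ESC was found for 8 (all genes, 8.62%), namely Col1a1, Col1a2, Col5a1, Col7a1, Col8a1, Col12a1, Col16a1 and Col24a1. In several of these iPS-J and ESC differed by less than 2-fold and their order rests on small differences, as with Col1a1 (7.86 against 7.38) and Col7a1 (1.38 against 1.30).

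Fibroblast markers had the array order of some of the collagens. Their summed relative signal over 12 genes was 441.2 in iPS-OSH, 142.2 in iPS-J, 97.4 in ESC and 1016 in MEF. This order was found for 8 of the 34 collagens and 4 of the 11 fibrillar chains, Col1a1 among them (all genes, 8.62%). Taken gene by gene, 8 of the 12 markers had it, and Pdgfra, Pdgfrb, Dcn and Lum did not. Col18a1 and Col22a1 had the opposite direction from MEF. Against ESC, all 12 markers were higher in iPS-OSH, as were 13 of 33 collagens (all genes, 8.85%). In that comparison 8 collagens were lower (all genes, 27.6%), and 2 after normexp and after quantile normalization. In iPS-OSH the markers stood at a median of 39.2% of their MEF signal, from 9.84% for Postn to 253.0% for Dcn, the small proteoglycan that binds collagen fibrils. The 11 fibrillar collagens there stood at a median of 17.0%, from 4.24% for Col5a2 to 69.4% for Col11a2. In iPS-J the medians were 7.03% for the markers and 6.78% for the fibrillar chains, and in ESC 5.28% and 5.21%, with 2 and 1 of the fibrillar values not well above background. From the lowest up, the fibrillar chains in iPS-OSH were Col5a2 (4.24%), Col11a1 (5.859%), Col3a1 (6.59%), Col5a3 (12.03%), Col5a1 (16.5%) and Col1a1 (17.0%). Above these were Col1a2 (29.1%), Col2a1 (29.42%), Col27a1 (42.63%), Col24a1 (58.3%) and Col11a2 (69.4%). The markers there were Postn (9.84%), Pdgfrb (13.8%), Fbln5 (21.3%), S100a4 (25.97%), Prrx1 (30.9%), Pdgfra (31.24%) and Thy1 (47.06%). Above these were Vim (47.86%), Fn1 (53.53%), Twist2 (73.1%), Lum (74.2%) and Dcn (253.0%). The lists overlapped. The part of fibroblasts or other matrix-producing cells in these signals was not tested.

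**Figure D4:**
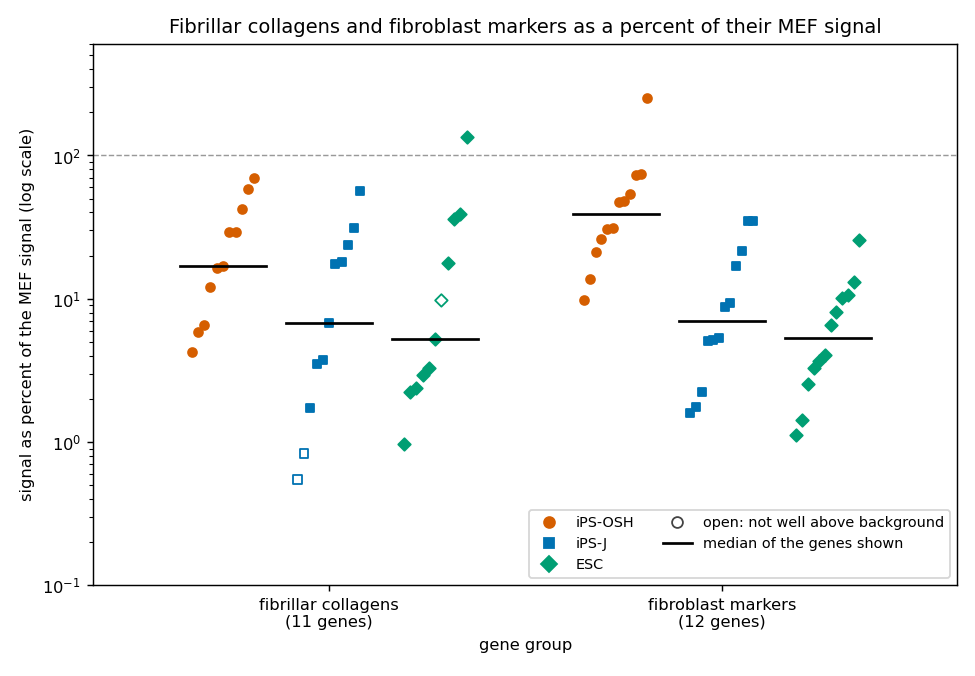
Signal of the 11 fibrillar collagens and of 12 fibroblast markers on each pluripotent array, as a percent of the same gene's MEF signal (log scale), with 1 point per gene, open points where the probe was not well above background, black lines at the medians and a dashed line at 100%. In iPS-OSH the median was 17.0% for the fibrillar chains and 39.2% for the markers, and both groups lay lower in iPS-J and ESC.

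Genes that modify and fold collagen chains in the endoplasmic reticulum were lower than in MEF or within 2-fold of it, and went in both directions between iPS-OSH and iPS-J. Of 20 such genes compared, 13 were lower than in MEF for iPS-OSH, 10 for iPS-J and 18 for ESC (all genes, 25.1%, 26.2% and 16.7%), and 0 were higher (all genes, 13.7%, 16.2% and 22.6%). Serpinh1, the collagen-specific chaperone HSP47, had relative signals of 20.7 in iPS-OSH, 25.7 in iPS-J, 6.57 in ESC and 107.7 in MEF, so ESC was lowest. Fkbp10 and Fkbp14, prolyl isomerases of the endoplasmic reticulum, were at 17.6, 8.29, 5.02 and 96.9 and at 2.14, 0.971, 1.02 and 11.1. Between iPS-OSH and iPS-J, 3 were higher (Leprel2, Fkbp10 and Fkbp14) and 5 lower (P4ha1, P4ha2, Plod1, Plod2 and Leprel1), where 8.91% and 7.37% of all genes were so. P4ha2, a prolyl 4-hydroxylase subunit, had 3.24, 13.9, 6.50 and 25.1, and P4ha1 had 0.559, 1.85, 1.05 and 2.81. Plod2, the lysyl hydroxylase of collagen telopeptides, had 2.00, 6.71, 2.20 and 3.52 and so was highest in iPS-J, 3.36-fold above iPS-OSH. Leprel2, a prolyl 3-hydroxylase, had 4.47, 1.41, 0.906 and 9.76.

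Genes that trim procollagen outside the cell were lower than in MEF in 3 of 7 cases for iPS-OSH, 5 for iPS-J and 6 for ESC, against the same 25.1%, 26.2% and 16.7% of all genes. Bmp1, the C-proteinase, had relative signals of 8.72 in iPS-OSH, 3.47 in iPS-J, 2.20 in ESC and 27.8 in MEF. Pcolce, which enhances that cleavage, had 66.5, 41.9, 19.3 and 199.2, and Adamts2, the N-proteinase, had 1.27, 0.296, 0.440 and 9.56. Tll1, a relative of Bmp1, had 0.823, 0.0589, 0.105 and 1.64 and was 14.0-fold higher in iPS-OSH than in iPS-J. In that comparison 3 of 6 were higher (Bmp1, Tll1 and Adamts2) and 0 lower, against 8.91% and 7.37% of all genes.

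Of 10 collagen receptors, 4 were lower than in MEF for iPS-OSH, 7 for iPS-J and 6 for ESC (all genes, 25.1%, 26.2% and 16.7%). On each of these arrays 0 were higher than in MEF (all genes, 13.7%, 16.2% and 22.6%). Itga11, the integrin subunit for fibrillar collagen on fibroblasts, had relative signals of 3.998 in iPS-OSH, 1.68 in iPS-J, 1.93 in ESC and 40.7 in MEF. The receptor kinase Ddr2, which fibrillar collagen activates, had 4.50, 0.727, 0.878 and 15.1, while Ddr1, its epithelial relative, had 1.09, 0.854, 0.674 and 1.76. Mrc2, an endocytic receptor for collagen, had 1.17, 0.162, 0.196 and 2.07, and Itga1, another integrin subunit that binds collagen, had 0.242, 0.0807, 0.0529 and 0.609. Between iPS-OSH and iPS-J, 5 of 10 were higher (Itga1, Itga11, Itgb1, Ddr2 and Mrc2) and 0 lower, against 8.91% and 7.37% of all genes. Against ESC, 5 were higher (again Itga1, Itga11, Itgb1, Ddr2 and Mrc2) and 1, Lair1, lower, against 8.85% and 27.6% of all genes.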

How the data were processed

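The data are 1-colour Agilent arrays of 4 mouse cell populations, 1 array each. Per the labels' protocols, total RNA was amplified and labelled with Cy3 by a low input kit. Intensities of 62976 spots were extracted with Agilent Feature Extraction 10.5.1.1, per the file headers, which subtracted background and did not normalize one array to another. Probe coordinates are mm9, and exon or UTR is not given in the sources used here. Gene names are those of the 3 files with the newer design annotation, and probes of the MEF file, which carries 34 of the 35 member names, were matched by probe name.

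Log2 processed signals of 59305 non-control spots were scaled to each array's 75th percentile, leaving out spots called uneven or outlying (203 to 531 an array), and averaged per probe. A gene was compared where its brightest probe passed the software's call for signal well above background on 1 array of the pair. If it passed on only 1, the difference is a bound, with the dimmer side set to that array's lowest passing signal, or to the probe's own if higher. A change of 2-fold counted as a difference, with no test. The text names every collagen. Of each list of collagen pathway genes it gives signals for up to 4 with the largest differences, plus 7 set by name. Other pathway genes and cell markers are named where a count, a sum, a detection or a change of sign concerns them. All fibroblast markers are named with their percentages in iPS-OSH. The members, lists and classes were chosen with earlier results of these data known. Alternatives were normexp (offset 50), quantile normalization, other percentiles and spike-in scaling, other filters and probe rules, the deposited value table and a 4-fold threshold. Python 3.11.15, pandas 2.3.3, R 4.3.3 and limma 3.58.1 were used.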

Additional observations from a re-analysis of the deposited data

Results flagged for a closer look

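On this array 3 probes carry a collagen description but no collagen symbol, and so lie outside the 35 genes. Each had a signal well above background. A probe for type VI, alpha 3, the chain that completes the type VI trimer, had relative signals of 5.66 in iPS-OSH, 2.13 in iPS-J, 1.98 in ESC and 70.49 in MEF, with differences from MEF of -3.64, -5.05 and -5.16. A second probe described as type VI, alpha 2 had 0.0929, 0.0229, 0.0430 and 0.6163, the iPS-J value being not well above background. A probe described as type XII, alpha 1 had 0.1523 in iPS-J, its highest array, against 0.0350 in MEF, 0.0496 in ESC and 0.0168, not well above background, in iPS-OSH. The main Col12a1 probe was highest in MEF, and why the probes differ was not tested.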

How the results depend on the processing

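Over 15 counts of collagens and 13 alternatives, 181 of 195 values stayed within 1.5 times of the reported count. The 5 fibril-associated chains lower in iPS-OSH than in MEF were 3 after normexp, after quantile normalization, with the percentile over probes detected on every array and with the median over probes, and 1 at 4-fold. The 3 lower in iPS-J were 5 on the spike-in scale and also in the deposited table, which is not scaled between arrays. The 2 collagens higher in iPS-J than in ESC were 0 after normexp and at 4-fold, and 1 with detection on both arrays and with ERCC detection. At 4-fold, 11 collagens in place of 23 and 4 other collagens in place of 9 were lower in iPS-OSH than in MEF, and 9 in place of 14 were higher in iPS-OSH than in iPS-J. A stricter threshold lowers a count by construction, and otherwise the cause was not tested. With the median over a gene's probes, signs turned for Ibsp (0.24) and Lair1 (0.21) in iPS-OSH minus MEF, Col10a1 (0.13) and Col15a1 (0.07) in iPS-J minus MEF, Col15a1 in iPS-OSH minus ESC (1.44) and iPS-J minus ESC (2.00), and Col10a1 in iPS-OSH minus iPS-J (-0.54). All 27 collagens past 2-fold between iPS-OSH and MEF, and all 26 between ESC and MEF, kept their sign under each alternative run. Scaling also moved the median difference over all genes, from 0.11 to -0.41 between ESC and MEF on the spike-in scale and from -0.29 to -0.80 between iPS-J and MEF in the deposited table, and collagen differences are to be read against it. Of all genes past 2-fold, those higher in iPS-OSH than in ESC made up 24.3%, and 50.3% on the spike-in scale. For iPS-J against ESC the share was 17.5%, and 42.4% after quantile normalization. For iPS-OSH against iPS-J it was 54.7%, and 78.7% in the deposited table, where 16 collagens were higher and 0 lower. Replicates were 1 per population, so none could be left out. No paired analysis was possible because each population has 1 array.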
